A study of Homo sapiens with 9 samples.

Results

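The FOXO transcription factors FOXO1, FOXO3 and FOXO4 and 7 genes known as FOXO targets, namely FBXO32, BCL6, TXNIP, PIK3IP1, IRS2, CITED2 and KLF9, were examined across 3 glioblastoma cell lines. These 10 genes were taken by symbol from the 60606 genes measured, and all 10 were among the 22909 genes with a mean above 1 TPM (transcript abundance scaled to the gene length and the library total), the set in which tests were run. The set was chosen by its measured values, because FBXO32 stood among the genes most raised in Diff cells. Its values in Diff cells against U87 cells are therefore a description, and no p is given for the 10 genes in that comparison or for FBXO32 in any comparison.

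RNA sequencing covered 3 libraries each of U87, GSCs and Diff cells. U87 is an established human glioblastoma line and was the parental, wild-type line, grown in DMEM with 10% FBS. GSCs were radioresistant stem-like U87 cells that had been irradiated 13 times with 5 Gy to screen for resistance, and they were kept in serum-free medium containing B27, 20 ng/ml EGF and 20 ng/ml bFGF. Diff cells were the progeny of these GSCs after induction with 10% FBS, and were then grown from selected clones. All 3 lines thus share the U87 background, GSCs and Diff cells share the irradiation history, and U87 and Diff cells share serum. Irradiation and medium cannot be told apart in GSCs against U87 cells, nor can serum and clonal selection in Diff cells against GSCs. In bulk RNA, fewer cells with a transcript and less of that transcript per cell cannot be told apart either.

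FOXO factors bind promoters that carry a short forkhead motif and switch on genes of cell cycle arrest, stress defence, autophagy, protein breakdown and insulin sensitivity. Growth factor signalling through PI3K and AKT phosphorylates them and holds them in the cytoplasm, so their activity is set largely by location and modification, which RNA levels do not show. In stem cells of several tissues, FOXO factors are known for supporting quiescence and redox balance.

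RefSeq promoter windows of GRCh38.p14, from 250 bases before to 50 after each start, were found for 9 of the 10 genes, in 17 windows. They were searched on both strands for the forkhead motif GTAAACA, the insulin response motif CAAAACA and the E-box CACGTG, which do not overlap one another. The forkhead motif lay in a window of 3 genes, TXNIP, PIK3IP1 and FOXO4. In PIK3IP1 and FOXO4 its first base was 17 and 24 bases after a start, within the transcript. Among all 35116 promoter windows 3.42% hold the forkhead motif, 4.92% the insulin response motif and 7.26% the E-box. Shown here are the 250 bases before the start of the 3 genes in which a searched motif lies upstream, each on the minus strand and read 5′ to 3′, with the motif in capitals: the forkhead motif of TXNIP at -124 (chr1:145996580-145996829), the reversed insulin response motif of IRS2 at -40 (chr13:109786584-109786833) and the E-box of CITED2 at -153 (chr6:139374649-139374898).
TXNIP: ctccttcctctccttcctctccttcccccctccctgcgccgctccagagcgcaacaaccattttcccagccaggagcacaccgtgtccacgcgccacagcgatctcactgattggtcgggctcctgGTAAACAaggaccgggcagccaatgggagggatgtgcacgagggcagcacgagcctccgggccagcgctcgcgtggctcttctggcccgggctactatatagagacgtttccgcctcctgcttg
IRS2: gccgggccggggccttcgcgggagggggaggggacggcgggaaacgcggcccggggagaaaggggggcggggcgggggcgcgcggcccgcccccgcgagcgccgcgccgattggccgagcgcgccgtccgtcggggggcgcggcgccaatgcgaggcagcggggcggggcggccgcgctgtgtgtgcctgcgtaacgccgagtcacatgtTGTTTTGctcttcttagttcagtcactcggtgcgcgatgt
CITED2: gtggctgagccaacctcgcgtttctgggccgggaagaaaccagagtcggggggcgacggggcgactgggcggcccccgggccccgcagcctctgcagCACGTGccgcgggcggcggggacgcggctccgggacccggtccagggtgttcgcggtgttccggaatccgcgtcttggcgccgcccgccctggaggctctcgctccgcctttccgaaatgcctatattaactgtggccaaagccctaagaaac
These matches describe the letters in the windows and are not measured binding sites.

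Of the 10 genes, 7 had their highest level in GSCs. In FOXO1, BCL6, TXNIP, PIK3IP1, IRS2, CITED2 and KLF9 every GSC library lay above every library of both other lines, a pattern seen in 16.6% of all tested genes. FBXO32 was the 1 gene with every Diff library above the rest, an order that its choice favoured and that 8.29% of tested genes had. FOXO3 and FOXO4 separated no line. Of the 22909 tested genes, libraries did not overlap in 12787 for GSCs against U87 cells and in 10708 for Diff cells against GSCs. For Diff cells against U87 cells the number was 12645, so lines without overlap were common. None of the 9 genes other than FBXO32 had U87 highest in every library, against 18.1% of tested genes. Across the 9 genes other than FBXO32, the test in GSCs against U87 cells (limma on log2(TPM + 1), adjusted p under 0.05) was passed by 7 upward and by 0 downward, where 25.3% and 23.3% of all tested genes did so. PIK3IP1 is among the 7. Its means were 0.782, 1.60 and 1.08 TPM in U87 cells, GSCs and Diff cells. It entered the tests through GSCs, the line where it was highest. PIK3IP1 missed the threshold in 5 alternative settings, and without it 6 of 8 passed. Of the 7, 6 also differed by more than 1 on the log2 scale, as did 9.52% of all tested genes upward and 7.53% downward, and 5 did without GSC replicate 2 or without U87 replicate 3, where IRS2 was at 0.96. In Diff cells against GSCs, 5 of the 9 passed downward and 0 upward, against 19.8% and 15.0% of tested genes, and 4 of the 5 fell by more than 1, against 5.36% downward and 2.66% upward. The median log2 difference of the 9 genes was 1.21 in GSCs against U87 cells and -0.73 in Diff cells against GSCs, beside 0.02 and -0.06 over all tested genes. The first comparison uses the same U87 libraries as the comparison that chose the set, and the other uses the same Diff libraries. The other 9 genes were also chosen with earlier results of these data known. That choice may have favoured these counts, so they describe the chosen genes only.

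Markers were read beside these results. Stem cell markers went only in part with the GSC label. FABP7 had means of 0.731, 4.91 and 2.86 TPM in U87 cells, GSCs and Diff cells. SOX2 had 0.0383, 0.879 and 0.153 TPM and PROM1 0.171, 0.507 and 0.0236 TPM in the same order. SOX2, PROM1 and MSI1, which was at most 0.217 TPM in any library, did not reach the level for testing. OLIG2 had means of 7.27, 8.75 and 5.37 TPM, and U87 cells and GSCs overlapped. NES was highest in U87 cells at 33.0 TPM. The 6 stem cell markers summed to 39.1 to 43.1 TPM in U87 cells, 35.5 to 39.9 TPM in GSCs and 21.3 to 22.7 TPM in Diff cells. Of 7 leukocyte and endothelial markers, 2 had means above 1 TPM in GSCs, VWF at 11.4 TPM and PECAM1 at 6.25 TPM, and the summed level was 16.9 to 19.3 TPM in GSCs, 3.06 to 4.93 TPM in U87 cells and 4.39 to 5.86 TPM in Diff cells. PTPRC, the marker of all leukocytes, was at most 0.137 TPM and CDH5, the endothelial cadherin, at most 0.465 TPM in any library, while CD3E and MS4A1, of T and B cells, reached at most 0.125 and 0.0289 TPM. Neuronal and glial markers summed to 12.6 to 15.8 TPM in U87 cells, 13.5 to 14.2 TPM in GSCs and 28.4 to 28.8 TPM in Diff cells. MAP2, a neuronal microtubule protein, made up most of this difference, with means of 7.95, 8.22 and 21.7 TPM. It rose by 1.30 in Diff cells against GSCs (adjusted p = 4.7e-05). TUBB3, another neuronal marker, had means of 3.74, 4.66 and 5.22 TPM and was at 0.14 in that comparison (adjusted p = 0.516). The astrocyte marker GFAP, at 2.29, 0.809 and 0.909 TPM, was highest in U87 cells. RBFOX3 (0.113, 0.107 and 0.101 TPM), S100B (0.101, 0.134 and 0.617 TPM), DCX and AQP4 did not reach the level for testing. The part of these markers in the GSC values of the 10 genes was not tested. Mitochondrial transcripts took 25.9 to 28.8% of TPM in U87 cells, 27.9 to 30.8% in GSCs and 30.7 to 31.8% in Diff cells. The noncoding RNA RN7SL1 took 8.77 to 9.79% in U87 cells, 5.73 to 7.84% in GSCs and 6.67 to 8.54% in Diff cells. The RN7SL1 share depends on how RNA was selected, for which the sources give different methods.

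**Figure D1:**
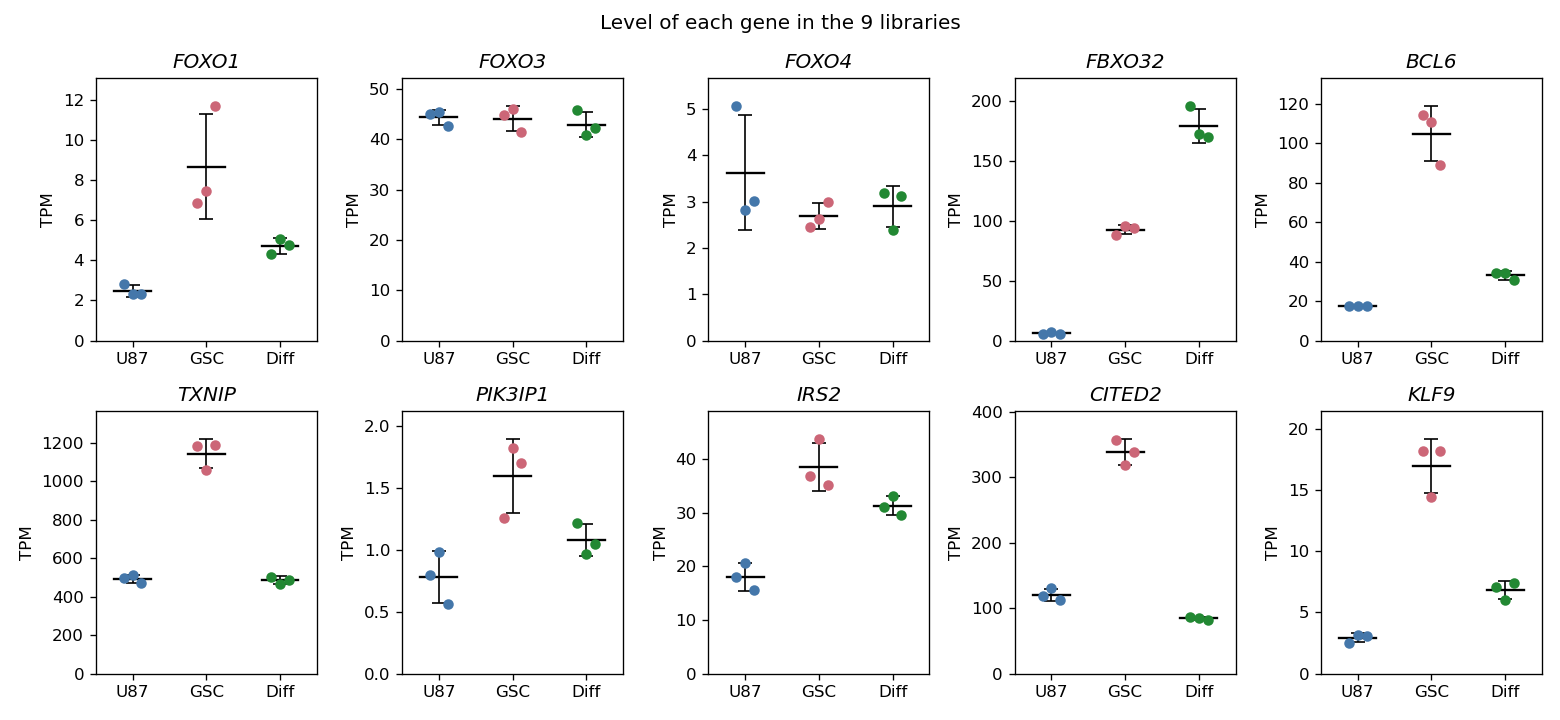
TPM of the 10 genes in U87, GSC and Diff libraries, 1 panel per gene with its own linear axis from 0; points are the 3 libraries, the long line is their mean and the bars are ±1 SD. 7 genes peak in GSCs, FBXO32 is highest in Diff cells at 170 to 196 TPM, and FOXO3 stays between 40.9 and 46.1 TPM throughout.

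Among the factors themselves, FOXO3, the most abundant FOXO transcript here (GRCh38 chr6:108559835-108684774, plus strand), had means of 44.4, 44.1 and 43.0 TPM in U87 cells, GSCs and Diff cells. Its TPM was 45.0, 45.5 and 42.8 in U87 cells, 45.0, 46.1 and 41.4 in GSCs and 45.8, 40.9 and 42.2 in Diff cells. All 3 lines overlapped. The log2 difference was -0.01 (SE 0.064, adjusted p = 0.912) in GSCs against U87 cells and -0.04 (SE 0.064, adjusted p = 0.686) in Diff cells against GSCs, and the sign turned without GSC replicate 3 or U87 replicate 2 in the former and with other scalings of the libraries in the latter. FOXO3B, a processed pseudogene that is a near copy of FOXO3, is listed at 4.57 to 5.79 TPM over the 9 libraries, so that reads may have been split between the copies and the FOXO3 level is uncertain to that extent.

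FOXO1, a factor best known for control of gluconeogenic and insulin-responsive genes, rose in GSCs and fell back in part in Diff cells. The gene lies at chr13:40469953-40666597, minus strand. It was measured at 2.84, 2.30 and 2.34 TPM in U87 cells, 6.87, 7.49 and 11.7 TPM in GSCs and 4.31, 5.09 and 4.77 TPM in Diff cells. The lines did not overlap, in the order U87, Diff, GSC, and the GSC libraries had the widest spread, with replicate 3 well above the others. The rise from U87 cells to GSCs was 1.44 on the log2 scale (SE 0.181, adjusted p = 0.000203), a 3.48-fold ratio of mean TPM. FOXO1 fell by 0.73 in Diff cells against GSCs (adjusted p = 0.0139). LINC00598, a long noncoding RNA on the same strand, shares 269 exonic bases with FOXO1, which is 4.32% of its exons. LINC00598 was listed at 0.212 to 0.506 TPM in U87 cells, 18.4 to 20.2 TPM in GSCs and 15.7 to 18.6 TPM in Diff cells. It moved in the same direction as FOXO1 between U87 cells and GSCs, and its part in the FOXO1 counts was not tested.

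FOXO4, the X-linked member of the family (chrX:71096197-71103535, plus strand), was low in all lines. It stood at 5.06, 2.82 and 3.01 TPM in U87 cells, 2.45, 2.62 and 2.99 TPM in GSCs and 3.19, 2.38 and 3.13 TPM in Diff cells. The lines overlapped, and the high mean of U87 cells came from replicate 1. Neither difference passed, at -0.30 (SE 0.194, adjusted p = 0.241) in GSCs against U87 cells and 0.08 (SE 0.194, adjusted p = 0.799) in Diff cells against GSCs. FOXO6, the remaining family member, did not reach the level for testing, with a highest value of 0.186 TPM in any library.

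The summed TPM of FOXO1, FOXO3, FOXO4 and FOXO6 was 48.2 to 53.1 in U87 cells, 54.3 to 56.2 in GSCs and 48.3 to 53.5 in Diff cells. FOXO3 made up 87.8% ± 2.69 (SD, n = 3) of this sum in U87 cells, 79.5% ± 4.93 in GSCs and 84.8% ± 0.734 in Diff cells. FOXO1 made up 4.91% ± 0.404, 15.6% ± 4.53 and 9.37% ± 1.24 in the same order. The makeup of the FOXO transcript pool thus differed mainly in FOXO1, whose shares did not overlap between lines.

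**Figure D2:**
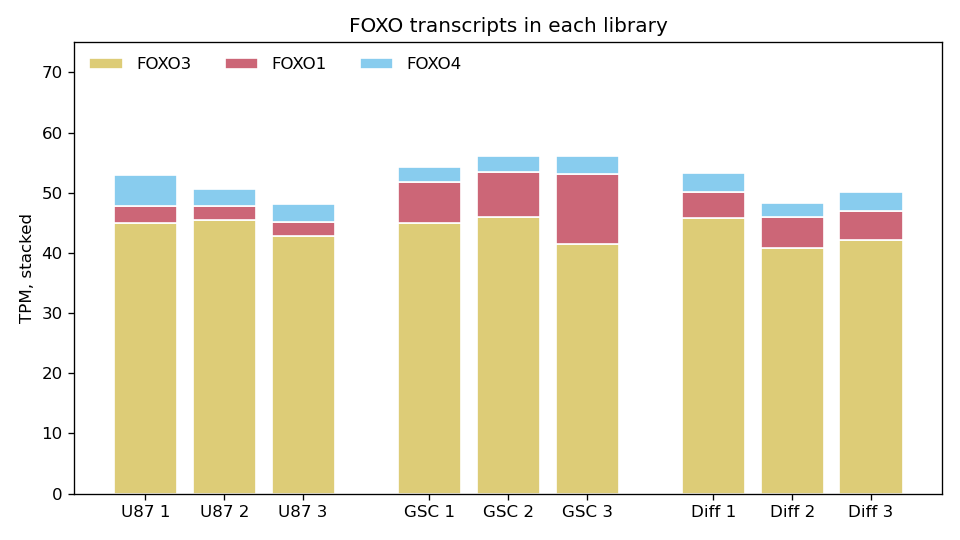
Stacked TPM of FOXO3, FOXO1 and FOXO4 in each of the 9 libraries, on a linear axis from 0. FOXO3 fills most of every bar, and the FOXO1 segment is widest in the 3 GSC libraries, at 6.87 to 11.7 TPM.

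FBXO32, also called atrogin-1, is the substrate-recognition part of an SCF ubiquitin ligase and is best known for muscle protein breakdown. Its gene lies at chr8:123497889-123541206, minus strand. It was measured at 5.77, 6.77 and 5.48 TPM in U87 cells, 88.4, 95.6 and 93.9 TPM in GSCs and 195.5, 172.6 and 169.9 TPM in Diff cells. The lines did not overlap and ran in the order U87, GSC, Diff. Mean TPM in GSCs was 15.4 times that of U87 cells, a log2 difference of 3.74 (SE 0.084), and in Diff cells 1.94 times that of GSCs, a difference of 0.94 (SE 0.084). Diff cells stood at 29.9 times the U87 mean, a log2 difference of 4.69 that ranked 12th of 22909 tested genes. The difference in GSCs against U87 cells ranked 108th, counted in the same way from the highest. Most of the distance between U87 and Diff cells on the log2 scale was thus already present in GSCs. FBXO25, the closest relative of FBXO32, was much lower and had another order, with means of 4.15, 7.63 and 5.23 TPM in U87 cells, GSCs and Diff cells. FBXO25 rose by 0.75 in GSCs against U87 cells (adjusted p = 0.000379) and fell by 0.47 in Diff cells against GSCs (adjusted p = 0.00822).

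BCL6, a zinc finger repressor that represses transcription with BCOR and NCOR corepressors, showed the largest rise in GSCs among the 9 tested genes. The gene lies at chr3:187721377-187745727, minus strand. Its level was 17.6, 17.4 and 17.5 TPM in U87 cells, 114.6, 110.9 and 89.0 TPM in GSCs and 34.4, 34.4 and 30.6 TPM in Diff cells. The lines did not overlap, and U87 libraries were nearly identical. BCL6 rose 5.98-fold from U87 cells to GSCs (log2 difference 2.51, SE 0.096, adjusted p = 1.9e-07) and then fell by 1.63 in Diff cells relative to GSCs (SE 0.096, adjusted p = 6.82e-06). Diff cells kept 1.89 times the U87 level. Antisense genes overlap 2.88% and 5.36% of BCL6 exons, and they moved with it, from means of 0.661 and 0.987 TPM in U87 cells to 4.15 and 5.33 TPM in GSCs and 0.889 and 1.46 TPM in Diff cells. Reads of either strand cannot be told apart without the strand setting, which was not given in the sources used here.

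KLF9, a Krüppel-like factor that responds to glucocorticoid and thyroid hormone and to oxidative stress, had the same order of lines as BCL6. The gene lies at chr9:70384597-70414624, minus strand. It was measured at 2.49, 3.16 and 3.09 TPM in U87 cells, 18.2, 14.4 and 18.2 TPM in GSCs and 7.10, 5.99 and 7.37 TPM in Diff cells. No 2 lines overlapped. KLF9 rose 5.81-fold in GSCs (log2 difference 2.19, SE 0.130, adjusted p = 2.08e-06) and fell by 1.20 in Diff cells against GSCs (SE 0.130, adjusted p = 0.0002). Against U87 cells, KLF9 in Diff cells was higher by 1.00 on the log2 scale, at a ratio of 2.34. Of its relatives, KLF11 rose by 0.81 in GSCs (adjusted p = 4.65e-05), KLF10 fell by 0.65 (adjusted p = 2.1e-05) and KLF13 fell by 0.44 (adjusted p = 0.00171), while KLF16 was at -0.11 (adjusted p = 0.494).

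TXNIP, an arrestin-like protein that binds thioredoxin and restrains glucose uptake, was the most abundant of the 10 genes and lies at chr1:145992435-145996600, minus strand. It stood at 496.9, 510.8 and 470.1 TPM in U87 cells, 1184, 1056 and 1186 TPM in GSCs and 503.1, 464.4 and 488.4 TPM in Diff cells. GSCs stood apart, and U87 and Diff cells overlapped. The rise in GSCs was 2.32-fold (log2 difference 1.21, SE 0.064, adjusted p = 1.1e-06), and in Diff cells against GSCs TXNIP fell by 1.23 (SE 0.064, adjusted p = 3.61e-06). The difference in Diff cells against U87 cells was -0.02, with a sign that turned under other scalings.

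Of the relatives of TXNIP, ARRDC2, ARRDC3 and ARRDC4 fell in GSCs. ARRDC3, an arrestin-domain protein of receptor turnover, had means of 124 TPM in U87 cells, 36.9 TPM in GSCs and 19.0 TPM in Diff cells and fell by 1.72 in GSCs against U87 cells (adjusted p = 9.32e-07). ARRDC4, which like TXNIP restrains glucose uptake, fell by 0.51 (adjusted p = 0.00126), from 48.8 TPM ± 4.79 to 34.0 TPM ± 2.48 (SD, n = 3 each). ARRDC2 fell by 0.56 (adjusted p = 0.0102). ARRDC1 had the order of TXNIP, with means of 20.1, 25.3 and 18.8 TPM, and was at 0.30 in GSCs against U87 cells (adjusted p = 0.0753) and fell by 0.40 in Diff cells against GSCs (adjusted p = 0.0381). In the whole list of 16 paralogs of the 10 genes, 10 were tested. In GSCs against U87 cells 2 passed upward and 6 downward (20% and 60%, beside 25.3% and 23.3% of all tested genes), in Diff cells against GSCs 2 and 4 (20% and 40%, beside 15.0% and 19.8%), and in Diff cells against U87 cells 1 and 5 (10% and 50%, beside 18.9% and 20.5%).

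CITED2, a transcriptional coregulator that binds CBP and p300 and limits HIF activity, was the 1 gene higher than U87 in GSCs and lower than U87 in Diff cells. The gene, at chr6:139371807-139374620, minus strand, was measured at 118.5, 130.2 and 112.2 TPM in U87 cells, 357.3, 318.7 and 339.4 TPM in GSCs and 86.8, 84.2 and 82.0 TPM in Diff cells. The lines did not overlap and ran in the order Diff, U87, GSC. CITED2 rose 2.81-fold in GSCs (log2 difference 1.49, SE 0.066, adjusted p = 4.4e-07). It then fell by 1.99 in Diff cells against GSCs (SE 0.066, adjusted p = 5.78e-07), the largest fall among the 9 tested genes. Diff cells stood at 0.701 times the U87 mean.

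Both genes of insulin and PI3K signalling in the set were also highest in GSCs, with smaller differences. They lie at chr13:109752698-109786568, minus strand (IRS2) and at chr22:31281593-31292534, minus strand (PIK3IP1). IRS2, an adaptor that links the insulin and IGF1 receptors to PI3K, stood at 17.9, 20.7 and 15.5 TPM in U87 cells, 36.8, 43.6 and 35.1 TPM in GSCs and 31.0, 33.1 and 29.6 TPM in Diff cells. No 2 lines overlapped, although GSCs and Diff cells lay close. IRS2 rose 2.13-fold in GSCs (log2 difference 1.05, SE 0.115, adjusted p = 8.65e-05), and the difference in Diff cells against GSCs was -0.29 (SE 0.115, adjusted p = 0.086), which did not pass. IRS1, the related adaptor, went the other way, with means of 102, 71.0 and 98.8 TPM in U87 cells, GSCs and Diff cells. IRS1 fell by 0.51 in GSCs against U87 cells (adjusted p = 0.00178) and rose by 0.47 in Diff cells against GSCs (adjusted p = 0.00452).

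PIK3IP1, a membrane protein that inhibits PI3K, was the least abundant member. Its values were 0.793, 0.985 and 0.566 TPM in U87 cells, 1.26, 1.82 and 1.71 TPM in GSCs and 1.22, 0.970 and 1.05 TPM in Diff cells. GSCs lay above both other lines, which overlapped. Every U87 library was below 1 TPM and the Diff mean was 1.08 TPM, so the gene entered the tests through GSCs. The difference in GSCs against U87 cells was 0.54 (SE 0.163, adjusted p = 0.0222) and did not hold in all settings. It missed the threshold without GSC replicate 2 (adjusted p = 0.0666), GSC replicate 3 (0.0509), U87 replicate 1 (0.0533) or U87 replicate 3 (0.0766), and when Diff libraries were left out of the fit (0.0514). Over all its alternatives the adjusted p ran from 0.00689 to 0.0766. In Diff cells against GSCs the difference was -0.31 (adjusted p = 0.172).

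**Figure D3:**
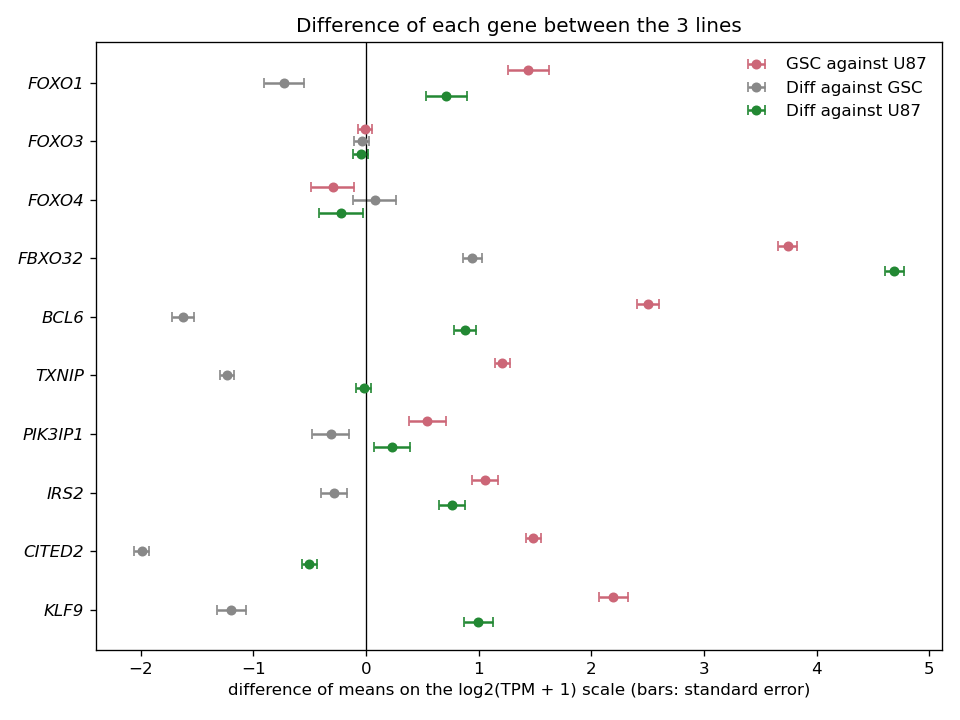
Differences of group means on the log2(TPM + 1) scale for the 10 genes in the 3 comparisons, with bars of 1 standard error from the limma fit. GSC against U87 is positive for 8 genes beyond the standard error, Diff against GSC is below 0 for those except FBXO32, and FOXO3 lies near 0 in every comparison.

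The receptors above IRS2 in the pathway also rose in GSCs. INSR, the insulin receptor and itself a known FOXO target, had means of 9.13, 22.5 and 11.7 TPM in U87 cells, GSCs and Diff cells and rose by 1.22 in GSCs against U87 cells (adjusted p = 1.9e-06). IGF1R, the IGF1 receptor, had means of 16.5, 34.3 and 24.7 TPM and rose by 1.02 (adjusted p = 1.34e-05). Both fell in Diff cells against GSCs, INSR by 0.89 (adjusted p = 3.44e-05) and IGF1R by 0.46 (adjusted p = 0.00291). Among 18 tested partners of the 10 proteins they were the 2 that rose by more than 1, as did 9.52% of all tested genes. In this list 4 passed upward and 6 downward in GSCs against U87 cells. These are 22.2% and 33.3% of the list, where 25.3% and 23.3% of all tested genes passed. In Diff cells against GSCs 3 partners passed in each direction (16.7%, beside 15.0% upward and 19.8% downward), and in Diff cells against U87 cells 4 passed upward and 3 downward (22.2% and 16.7%, beside 18.9% and 20.5%).

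Kinases and other regulators of FOXO proteins were also counted. Of 34 tested regulators, 7 passed upward and 14 downward in GSCs against U87 cells (20.6% and 41.2%, beside 25.3% and 23.3% of all tested genes). In Diff cells against GSCs 7 passed upward and 5 downward (20.6% and 14.7%, beside 15.0% and 19.8%). Against U87 cells, 2 passed upward and 7 downward in Diff cells (5.88% and 20.6%, beside 18.9% and 20.5%). AKT1 and AKT2, kinases that phosphorylate FOXO proteins, fell in GSCs against U87 cells, with log2 differences of -0.35 (adjusted p = 0.00746) and -0.31 (adjusted p = 0.00414). SGK1 and SGK3, kinases that share FOXO sites with AKT, rose by 0.64 (adjusted p = 0.000465) and 1.05 (adjusted p = 0.000809). SGK3 was the 1 regulator past a log2 difference of 1 in any comparison, at 0.962 TPM in U87 cells and 3.07 TPM in GSCs. In that comparison 9.52% of all tested genes were past it upward and 7.53% downward. SGK3 entered the tests through GSCs and Diff cells. It was no longer past a difference of 1 without GSC replicate 3, without U87 replicate 3 or with quantile normalization. C8orf44, on the same strand, shares 391 exonic bases with SGK3, which is 6.04% of its exons. C8orf44 had means of 7.05 TPM in U87 cells and 8.40 TPM in GSCs, and its part in the SGK3 counts was not tested.

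Other FOXO targets did not share 1 direction. Of 36 listed genes, 28 were tested. In GSCs against U87 cells 10 passed upward and 12 downward (35.7% and 42.9%, beside 25.3% and 23.3% of all tested genes). Of these, 5 and 8 differed by more than 1, beside 9.52% and 7.53% of all tested genes, and the list median was 0.04. In Diff cells against U87 cells 12 passed upward and 14 downward (42.9% and 50%, beside 18.9% and 20.5%). Of these, 4 and 7 differed by more than 1, where 5.92% and 6.36% of all tested genes did so, and the median was -0.31. In Diff cells against GSCs 7 passed upward and 9 downward (25% and 32.1%, beside 15.0% and 19.8%). Of these, 3 and 4 differed by more than 1, beside 2.66% and 5.36% of all tested genes, and the median was -0.13. In 12 of the 28 U87 lay above both other lines in every library, in 5 GSCs did and in 5 Diff cells did. These orders were seen in 18.1%, 16.6% and 8.29% of all tested genes.

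The largest falls were those of DEPP1, IGFBP1, DDIT4 and BNIP3, the latter pair of which are also known to respond to low oxygen. DEPP1, a regulator of autophagy and peroxisomal redox balance, had means of 271 TPM in U87 cells, 74.5 TPM in GSCs and 5.28 TPM in Diff cells, and fell by 5.43 in Diff cells against U87 cells (adjusted p = 5.81e-07). RASSF4 overlaps 23.3% of DEPP1 exons on the opposite strand, so its level is uncertain to that extent. IGFBP1, a secreted IGF-binding protein, went from 53.7 TPM to 1.32 and 1.04 TPM and fell by 4.60 in GSCs against U87 cells (adjusted p = 6.45e-07). DDIT4, an mTORC1 inhibitor with an antisense gene over 41.2% of its exons, had means of 622, 127 and 32.3 TPM and fell by 4.24 in Diff cells against U87 cells (adjusted p = 1.04e-06). BNIP3, a mitophagy receptor with several pseudogene copies, went from 283 to 47.7 and 14.8 TPM and fell by 4.17 (adjusted p = 2.45e-08). SESN3, a stress-induced sestrin, was at 4.80, 0.376 and 0.199 TPM and fell by 2.07 in GSCs against U87 cells (adjusted p = 4.34e-06), having entered the tests through U87 cells. KLF2, a quiescence factor of lymphocytes and endothelium, had means of 27.0, 4.34 and 13.3 TPM, falling by 2.39 in GSCs against U87 cells (adjusted p = 3.79e-06) and rising by 1.39 in Diff cells against GSCs (adjusted p = 0.000243).

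The 2 largest rises were in PPARGC1A and S1PR1, whose means had the order of FBXO32. PPARGC1A, the coactivator of mitochondrial biogenesis, had means of 2.03, 6.88 and 24.8 TPM in U87 cells, GSCs and Diff cells and rose by 3.09 in Diff cells against U87 cells (adjusted p = 5.15e-07). S1PR1, a sphingosine phosphate receptor, had means of 0.269 and 2.47 TPM in U87 cells and GSCs and 5.07 to 6.62 TPM in Diff libraries and rose by 2.47 in Diff cells against U87 cells (adjusted p = 7.88e-06), having entered the tests through GSCs and Diff cells. Each also rose in Diff cells against GSCs, by 1.72 (adjusted p = 2.58e-05) and 1.01 (adjusted p = 0.00215). SOD2, the mitochondrial superoxide dismutase, was highest in GSCs, with means of 14.1, 47.3 and 31.7 TPM, and rose by 1.67 in GSCs against U87 cells (adjusted p = 2.43e-06). ACAT2 and WTAP overlap SOD2 exons on the opposite strand, and ACAT2 also rose, by 2.68 (adjusted p = 1.79e-07), so the SOD2 value is uncertain.

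CDKN1A, CDKN1B, BCL2L11, CAT and CCNG2, textbook FOXO targets, differed by less than 1 in all 3 comparisons. CDKN1A, the p21 inhibitor of cyclin-dependent kinases, rose by 0.42 in GSCs against U87 cells (adjusted p = 0.00338), and CDKN1B, the p27 inhibitor, was at -0.26 (adjusted p = 0.0614). BCL2L11, the pro-apoptotic BIM, rose by 0.72 (adjusted p = 0.000836), from 2.53 to 4.82 TPM, and a noncoding gene overlaps 10.9% of its exons on the opposite strand. CAT, the peroxide-degrading catalase, fell by 0.71 (adjusted p = 8.44e-05), and CCNG2, a cyclin of arrested cells, was at 0.05 (adjusted p = 0.772) with a sign that turned under other scalings. CCNG2 fell by 0.79 in Diff cells against GSCs (adjusted p = 0.000964). PDK4, the pyruvate dehydrogenase kinase often used as a FOXO readout, did not reach the level for testing, with means of 0.239 and 0.0825 TPM in U87 cells and GSCs, and was listed at 0 in all Diff libraries.

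**Figure D4:**
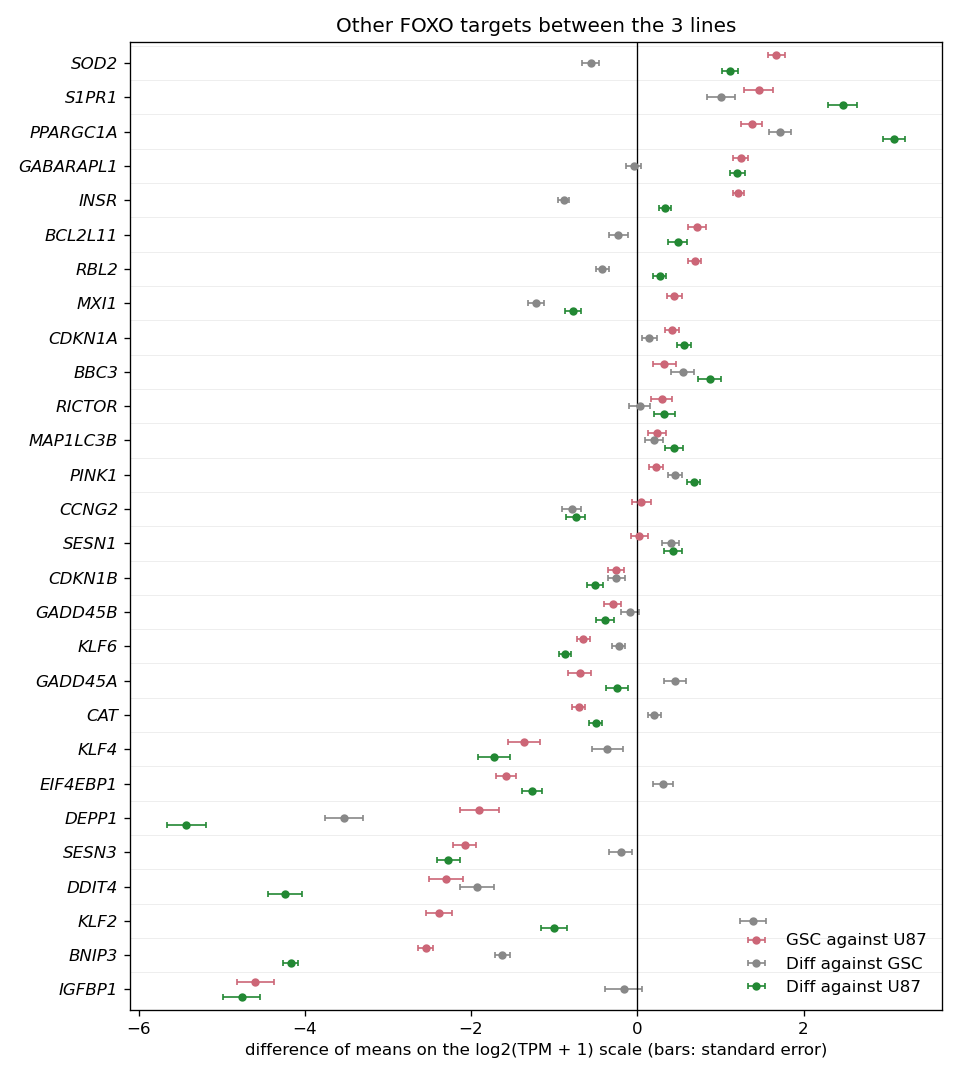
Differences of group means on the log2(TPM + 1) scale for the 28 tested FOXO targets outside the 10 genes, ordered by the difference in GSCs against U87 cells, with bars of 1 standard error. SOD2 is at the top at 1.67 and IGFBP1 at the bottom at -4.60, and the targets lie on both sides of 0.

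KLF9, PIK3IP1, TXNIP and FBXO32 are also known as glucocorticoid-responsive genes in several tissues. Of 12 other genes with such a response, 10 were tested. In GSCs against U87 cells 7 passed upward and 1 downward (70% and 10%, beside 25.3% and 23.3% of all tested genes), and in Diff cells against GSCs 0 upward and 9 downward (beside 15.0% and 19.8%). Against U87 cells, 3 passed upward and 4 downward in Diff cells (30% and 40%, beside 18.9% and 20.5%). GLUL, glutamine synthetase, had means of 7.41, 48.3 and 36.0 TPM in U87 cells, GSCs and Diff cells and rose by 2.55 in GSCs against U87 cells (adjusted p = 3.09e-08). CEBPD, a stress-induced transcription factor, rose by 1.26 (adjusted p = 2.37e-06). ERRFI1, a feedback inhibitor of EGFR, fell by 2.44 (adjusted p = 7.14e-08). DUSP1, a MAP kinase phosphatase, was at -0.09 in GSCs against U87 cells (adjusted p = 0.526) and fell by 1.58 in Diff cells against GSCs (adjusted p = 1.4e-05).

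Each gene was set beside its 24 nearest tested genes, 12 on either side along the chromosome. FBXO32 differed more in GSCs against U87 cells than all 24 neighbours, whose median was 0.03 and whose highest value was 3.33. The choice of FBXO32 by its measured values favoured this place. BCL6 lay above all 24 of its neighbours in the same comparison, where their median was -0.63 and their highest value 1.18, and below all 24 in Diff cells against GSCs. CITED2 lay below all 24 in Diff cells against GSCs, where the lowest neighbour was at -1.43. TXNIP and CITED2 each exceeded 23 of 24 neighbours in GSCs against U87 cells, KLF9 22, and FOXO1, PIK3IP1 and IRS2 19. FOXO3 and FOXO4 lay inside the range of theirs. How many of all tested genes lie beyond their neighbours was not counted.

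For each member except FOXO3, FOXO4 and PIK3IP1, the tested genes with the most similar pattern over the 9 libraries were found. The measure was the root mean square difference of centred log2(TPM + 1) values, a description over libraries that share their groups. For FBXO32 the nearest named genes were C3orf85 (0.280) and GPNMB (0.359), a melanosomal and lysosomal glycoprotein with means of 47.9, 497 and 701 TPM in U87 cells, GSCs and Diff cells. C3orf85 had means of 0.585, 16.3 and 45.8 TPM in the same order and entered the tests through GSCs and Diff cells. BCL6 and KLF9 were each other's nearest member, at 0.265. Among all tested genes KLF9 ranked only 46th for BCL6, and BCL6 93rd for KLF9. Nearest to BCL6 were ENPP2 (0.130), the enzyme autotaxin that makes lysophosphatidic acid, AQP6 (0.142) and NEU4 (0.142). AQP6 had means of 0.498, 6.31 and 1.29 TPM in U87 cells, GSCs and Diff cells, and NEU4 0.116, 4.69 and 0.668 TPM. Both entered the tests through GSCs, so a pattern high in GSCs was favoured for them. TMEM97 (0.146), a protein of cholesterol trafficking, was the nearest named gene to KLF9. TXNIP had the closest likeness of all, to TTC39B (0.0429), L3MBTL1 (0.0767) and GRAMD1B (0.0847). The nearest member to TXNIP was CITED2 (0.317), which ranked only 910th. KDM7A (0.138), a histone demethylase, was the nearest named gene to CITED2. FOXO1 was most like the amino acid transporters SLC6A15 (0.113) and SLC36A4 (0.123) and then PARD6B (0.136), and IRS2 most like BEGAIN (0.0585), TFAP4 (0.0957) and LINC00174 (0.0963).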

How the data were processed

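The table holds RNA-seq values of 3 libraries each of U87, GSCs and Diff cells. The authors deposited log2(TPM + 1) per gene. The labels describe removal of ribosomal RNA, whereas the study's methods describe selection with oligo(dT), so which was used is not settled, and TPM of RN7SL1 and other RNAs without a poly(A) tail depends on it. The submitters' notes name FastQC 0.11.9, Trimmomatic 0.39, HISAT2 2.2.1, featureCounts 2.0.5, R 4.2.0 and GRCh38; annotation and strand setting are not given in the sources used here. TPM summed to 1000000 in every library and keeps no depth, so counting error is unknown and replicate spread is the only measure of precision. Nothing in the labels says that libraries came from separate cultures, so p-values measure only the spread between these libraries.

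Genes with a mean above 1 TPM were fitted in limma 3.58.1 (R 4.3.3, trend, 3 groups), with Benjamini-Hochberg adjustment within each comparison at 0.05. Fold ratios are of mean TPM, and log2 differences, on the log2(TPM + 1) scale, understate changes of low genes. The pipeline was tested on simulated data. Overlaps and neighbours came from GENCODE 29 on GRCh38. Members and lists were chosen with earlier results of these data known. Named were all members, up to 8 genes per other list with the largest differences past a log2 difference of 1, tested paralogs, 13 preset genes (1 not reported here) and the 3 nearest patterns, given by symbol where there was one. Alternatives covered pseudocount, filter, scaling, fit, replicate block and leaving out each library.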

Additional observations from a re-analysis of the deposited data

Results flagged for a closer look

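CITED2 moved in opposite directions in the 2 derived lines. Every GSC library lay above every U87 library, with a log2 difference of 1.49, and every Diff library lay below every U87 library, with a log2 difference of -0.51. The difference between these effects, which is Diff cells against GSCs, was -1.99 on the log2 scale (limma, adjusted p = 5.78e-07), and U87 libraries cancel out of it. CITED2 was flagged because of these opposite orders and because this p passed. Its direction follows from the orders, so the p is no separate support for them.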

How the results depend on the processing

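Recomputed differences of the 10 genes were checked for direction and 1 further trait. In Diff cells against U87 cells, and for FBXO32 throughout, this was a shift smaller than the larger SD of the 2 groups. Elsewhere it was the side of the adjusted p threshold. Crossing a log2 difference of 1 was not counted. Both held in 169 cases in Diff cells against U87 cells, 170 in GSCs against U87 cells and 175 in Diff cells against GSCs. The exceptions numbered 9, 8 and 3. In Diff cells against U87 cells TXNIP (-0.02) turned positive with median-ratio scaling (0.031), with TPM without RN7SL1 and mitochondrial genes (0.025) and without Diff replicate 2 (0.0098) or U87 replicate 2 (0.0051), and FOXO3 with median-ratio scaling (0.0027). FOXO3, near 0 throughout, changed sign in Diff cells against GSCs with median-ratio scaling (0.0264) and with TPM recomputed without RN7SL1 and mitochondrial genes (0.0236), and in GSCs against U87 cells it ran from -0.0405 to 0.0340 when 1 library was left out, being positive without GSC replicate 3 (0.0340) or U87 replicate 2 (0.00734). PIK3IP1 is described with its result. Of the 9 genes other than FBXO32, 0 exceeded a log2 difference of 1 in Diff cells against U87 cells, and 1 did with a pseudocount of 0.1, quantile normalization, median-ratio scaling or TPM without RN7SL1 and mitochondrial genes, with a range of 0 to 1 when 1 library was left out (1 without Diff replicate 2, U87 replicate 2 or U87 replicate 3); this is KLF9, at 1.20 with the smaller pseudocount. FOXO regulators past a log2 difference of 1 numbered 0 in Diff cells against U87 cells and 1 with a pseudocount of 0.1. In GSCs against U87 cells they numbered 1, becoming 2 with a pseudocount of 0.1 or without RN7SL1 and mitochondrial genes, 0 with a mean above 5 TPM, and 0 to 1 with 1 library left out (0 without U87 replicate 3). SGK3 was the 1 before these changes. It was not past this difference with quantile normalization or without GSC replicate 3, where another regulator made up the count. Of the 9 genes, 6 were called in GSCs against U87 cells and 5 without GSC replicate 2 or U87 replicate 3, where IRS2 lay below 1. Over all genes the calls were 2812, 3908 and 1836 in Diff against U87, GSC against U87 and Diff against GSC, and 1583, 2254 and 1038 with a mean above 5 TPM, where fewer genes were tested. Quantile normalization split the 1791 calls of Diff against GSC into 760 upward and 1031 downward, instead of 609 and 1227. Replicate numbers did not pair the libraries, since correlations of same-numbered deviations ran from -0.0416 to 0.0489. With the replicate block 2810, 3917 and 1831 genes were called, and of the 10 genes only IRS2 changed its side of the threshold, in Diff cells against GSCs (-0.29, adjusted p = 0.0207, without the block 0.086). In leave-one-out fits the group of 2 is taken to vary like the others. Count tests were not run because the table holds no counts. The cause of these changes was not tested.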
